A study of Mus musculus with 12 samples.

Results

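The genes described here encode the enzymes of the citrate cycle and of mitochondrial fatty acid oxidation. They were chosen by symbol, 18 for the citrate cycle and 16 for fatty acid oxidation, and all 34 were found in both deposited tables, among 21753 genes listed in at least 1 of them. The citrate cycle oxidises acetyl-CoA in the mitochondrial matrix and passes the electrons to the respiratory chain as NADH and reduced flavin. Fatty acid oxidation carries acyl groups into the same compartment on carnitine, shortens them in repeated rounds of dehydrogenation, hydration, dehydrogenation and thiolysis, and delivers acetyl-CoA to the cycle. Neurons are known to rely mainly on glucose and lactate and to oxidise little fat, while glia carry more of that capacity.

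RNA came from mouse dorsal root ganglion neurons, the sensory neurons beside the spinal cord, at levels L4-6, which feed the sciatic nerve. All mice were 8-week C57BL/6J animals, and all had a spinal cord injury 72 h (3 days) before collection, so no uninjured group enters any comparison. In the first experiment, mice received AAV-TKT, an adeno-associated virus carrying transketolase, or AAV-GFP, the same kind of virus carrying green fluorescent protein, through the sciatic nerve for 4 weeks. In the second, mice received 10% ribose (Ribose) or Vehicle. Each of the 4 groups had 3 libraries. The labels used here do not give the promoter of the virus, whether cells were sorted, or whether a library pooled animals or came from a separate one, so p-values measure the spread between these libraries, which may be technical.

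Tkt, the gene the virus carried, had 223, 259 and 262 FPKM in AAV-TKT, against 106.5, 101.7 and 98.1 FPKM in AAV-GFP, a log2 change of 1.27 (SE 0.084, limma adjusted p = 0.0054). FPKM, fragments scaled to transcript length and library size, is a level per length, so levels of different genes within a table can be compared. The label "neurons" was checked against marker genes. All 12 neuron markers were detected in both tables, with summed levels of 9961 to 11052 FPKM in AAV-TKT, 8287 to 9403 FPKM in AAV-GFP, 8562 to 8998 FPKM in Ribose and 8383 to 10261 FPKM in Vehicle. Markers of other cells were present as well. The 9 satellite glia markers summed to 703 to 1203 FPKM in AAV-TKT, 1043 to 1351 FPKM in AAV-GFP, 302 to 1041 FPKM in Ribose and 702 to 1679 FPKM in Vehicle. None of the 8 skeletal muscle or 7 adipocyte markers was listed in the AAV table, which holds no gene with a mean under 1.00 FPKM. The ribose table also lists lower genes, and there 1 of 8 muscle and 0 of 7 adipocyte markers reached that mean. The tables thus cannot be compared for these markers. In the ribose table the muscle markers summed to 8.29 to 21.97 FPKM in Ribose and 2.85 to 9.81 FPKM in Vehicle. The fragment count of a library is unknown in the AAV table. In the ribose table the spacing of the lowest values gave relative depths of 0.755 to 0.909 for Ribose and 1.00 to 1.34 for Vehicle, so the Ribose libraries were the shallower ones.

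Promoter sequence was available for 31 of the 34 genes, from RefSeq on GRCm38.p6, as windows of 300 bases that run from 250 bases before to 50 bases after the annotated start. The motifs of 3 factors known to act on genes of oxidative metabolism were searched on both strands. AAGGTCA, the core site of oestrogen-related receptors, was in the windows of Acadm, Ogdh and Sdhd, 3 of 31 genes (9.68%), against 5.38% of all 27025 genes with a window. TGACGTCA, the cyclic AMP response element, was in those of Mdh2 and Ogdh, 2 of 31 (6.45%), against 2.03% of all genes. A gene counted if any of its windows held the motif. The 31 genes had 37 windows, as Ogdh and Pcx had more than 1, so Ogdh had more sequence to match. The windows of Ogdh with TGACGTCA were not the one with AAGGTCA. The site of nuclear respiratory factor 1, spelled GCGCA, then any base (N), then GCGC, was in those of Etfb, Etfdh, Sdha, Sdhd and Sucla2, 5 of 31 (16.1%), against 5.19%. The last of these can be met on both strands at 1 place, as it was in Etfdh, and no letters of 1 motif overlapped those of another in the windows printed here. A match describes the letters only. A few windows are printed 5′ to 3′ on the gene's own strand. Mdh2 is shown because it had the smallest p of the 34 genes for the difference between the effects of AAV-TKT and ribose. Etfb is shown because it had the largest log2 change with AAV-TKT. Eci1 and Acadvl, with the smallest p for AAV-TKT, and Etfa, with the smallest p for ribose, had none of the 3 motifs in their windows. Sdha is shown because it holds the nuclear respiratory factor 1 site at 3 places, and Hadhb because its window shares 228 bases with that of Hadha. Capitals mark the motif. In Mdh2 (chr5:135778399-135778698, plus strand) it is TGACGTCA, with its first base 127 bases before the start. In Etfb (chr7:43443822-43444121, plus strand) and Sdha (chr13:74350191-74350490, minus strand) it is the nuclear respiratory factor 1 site, with its first base 11 bases before the start in Etfb and 98, 55 and 10 bases before it in Sdha.
Mdh2: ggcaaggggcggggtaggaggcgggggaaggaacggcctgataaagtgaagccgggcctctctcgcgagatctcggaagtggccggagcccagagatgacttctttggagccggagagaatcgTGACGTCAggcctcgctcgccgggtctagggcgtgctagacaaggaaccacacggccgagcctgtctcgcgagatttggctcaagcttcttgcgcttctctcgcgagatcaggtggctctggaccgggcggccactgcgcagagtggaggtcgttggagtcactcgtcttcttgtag
Etfb: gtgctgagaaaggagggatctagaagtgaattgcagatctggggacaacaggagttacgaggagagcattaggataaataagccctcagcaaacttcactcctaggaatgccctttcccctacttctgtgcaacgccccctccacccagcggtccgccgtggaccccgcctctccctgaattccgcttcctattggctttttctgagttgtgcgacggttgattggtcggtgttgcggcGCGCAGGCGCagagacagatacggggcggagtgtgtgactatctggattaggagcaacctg
Sdha: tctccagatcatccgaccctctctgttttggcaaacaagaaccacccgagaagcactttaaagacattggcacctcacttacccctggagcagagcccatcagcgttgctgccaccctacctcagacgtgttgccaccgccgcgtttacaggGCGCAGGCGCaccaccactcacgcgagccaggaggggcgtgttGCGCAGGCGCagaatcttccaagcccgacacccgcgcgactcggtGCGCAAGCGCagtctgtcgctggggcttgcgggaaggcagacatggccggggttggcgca
Hadhb, on chr5:30155003-30155302 of the plus strand, lies head to head with Hadha, whose window ends at 30155230 on the minus strand, so the genes of both subunits of the trifunctional protein start close together on opposite strands. None of the 3 motifs was in its window.
Hadhb: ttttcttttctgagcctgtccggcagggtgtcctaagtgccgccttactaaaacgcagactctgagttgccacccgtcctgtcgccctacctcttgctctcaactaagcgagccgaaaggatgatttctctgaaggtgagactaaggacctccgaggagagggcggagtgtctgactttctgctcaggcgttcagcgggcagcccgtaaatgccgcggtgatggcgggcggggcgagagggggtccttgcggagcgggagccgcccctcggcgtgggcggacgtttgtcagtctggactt

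The levels of the 34 genes spanned close to 2 orders of magnitude and were much alike in all groups. Group means ran from 3.25 to 259 FPKM in AAV-TKT, 3.18 to 229 FPKM in AAV-GFP, 6.10 to 213 FPKM in Ribose and 4.07 to 219 FPKM in Vehicle. By its mean, the median member stood at percentile 87.0 of the genes of the AAV table and 91.5 of the ribose table, which also lists many genes near 0. Mdh1, the cytosolic malate dehydrogenase of the malate-aspartate shuttle, was the highest of them. It had 237, 284 and 254 FPKM in AAV-TKT, against 234, 239 and 214 FPKM in AAV-GFP, and 214, 211 and 213 FPKM in Ribose, against 222, 183 and 250.9 FPKM in Vehicle. Those groups overlapped in both experiments. Mdh2, its mitochondrial counterpart, came next, and Cs (citrate synthase), Sdha, Sucla2, Idh3b and Ogdh followed at about 89 to 124 FPKM. At the low end of the cycle stood Suclg2, described next, and Idh2, the NADP-dependent mitochondrial isocitrate dehydrogenase, with Idh2 at 5.05 ± 0.933 FPKM in AAV-TKT and 5.76 ± 0.616 FPKM in AAV-GFP, and 6.10 ± 0.873 FPKM in Ribose and 6.28 ± 1.10 FPKM in Vehicle (SD, n = 3 each).

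**Figure D1:**
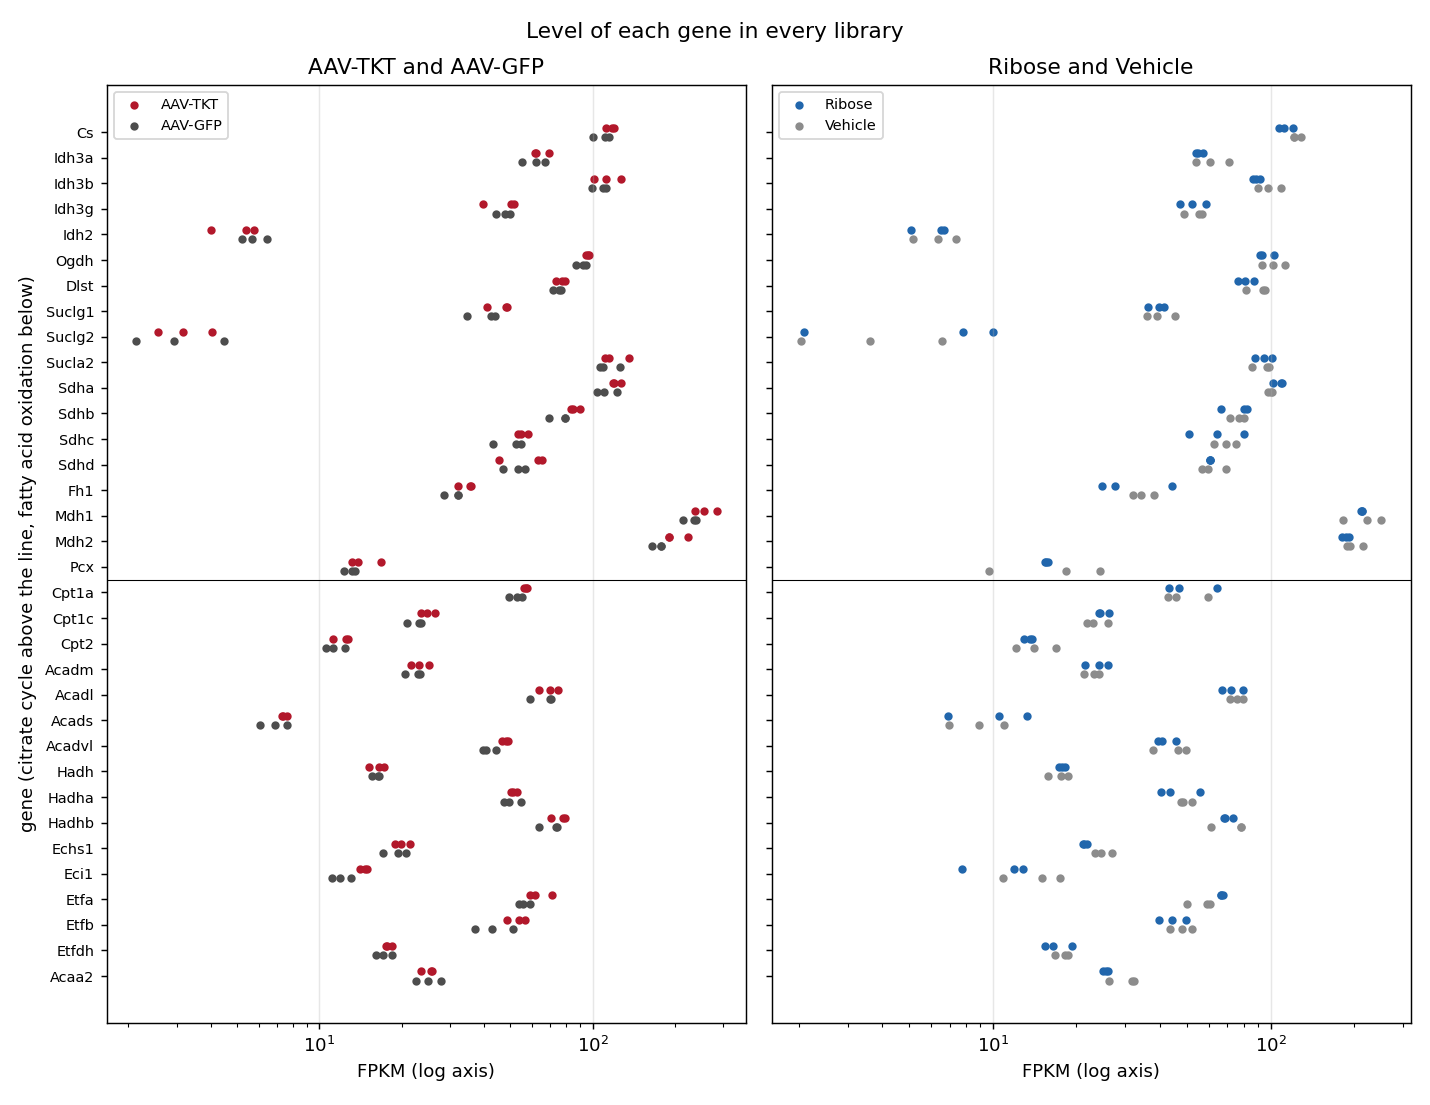
FPKM of the 34 genes (log axis) in each of the 12 libraries, with AAV-TKT and AAV-GFP on the left and Ribose and Vehicle on the right; each point is 1 library. Mdh1 and Mdh2 are the highest genes and Suclg2 and Idh2 the lowest, and in most rows the points of both groups lie among each other.

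Alternative subunits and isoforms of 1 step were present at unequal levels. Succinyl-CoA ligase pairs Suclg1 with either Sucla2, which makes the ADP-linked enzyme, or Suclg2, which makes the GDP-linked one. Sucla2 had 110.5, 136 and 115 FPKM in AAV-TKT, against 109, 126 and 106 FPKM in AAV-GFP, and 94.5, 88.1 and 101.2 FPKM in Ribose, against 97.2, 85.7 and 99.0 FPKM in Vehicle. Suclg2 had 4.03, 2.56 and 3.17 FPKM in AAV-TKT, against 4.46, 2.94 and 2.13 FPKM in AAV-GFP. The ADP-linked subunit was thus the higher of the pair in every library, 38.9 ± 13.1 times Suclg2 in AAV-TKT and 39.1 ± 13.1 times in AAV-GFP (SD, n = 3 each). In the ribose experiment Suclg2 had 7.79, 2.08 and 9.98 FPKM in Ribose, against 3.62, 2.03 and 6.56 FPKM in Vehicle. Both replicates numbered 2 were the lowest of their group, and the satellite glia markers were lowest there too, at 302 FPKM in Ribose replicate 2 and 702 FPKM in Vehicle replicate 2. In AAV-TKT, Suclg2 and the satellite glia markers were also both lowest in replicate 2. In AAV-GFP they parted, with Suclg2 lowest in replicate 3 and the satellite glia sum lowest in replicate 2, at 1043 FPKM against 1184 FPKM in replicate 3. The part of glial RNA in the level of Suclg2 was not tested, and in bulk samples such as these fewer cells of a type and less RNA per cell cannot be told apart. The log2 change of Suclg2 was 0.50 (SE 0.53, limma adjusted p = 1.00), the widest interval of the 34 genes, from -0.75 to 1.74.

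Entry of long-chain acyl groups into mitochondria runs through carnitine palmitoyltransferase. Cpt1a, the broadly expressed outer-membrane form, had 56.9, 56.0 and 57.3 FPKM in AAV-TKT, against 52.7, 55.0 and 49.2 FPKM in AAV-GFP. Cpt1c, a form known mainly from neurons and from the endoplasmic reticulum, had 24.8, 26.5 and 23.6 FPKM in AAV-TKT, against 23.1, 23.4 and 20.9 FPKM in AAV-GFP. All 3 AAV-TKT libraries lay above all 3 AAV-GFP libraries for both genes, with log2 changes of 0.12 (SE 0.066, limma adjusted p = 0.54) for Cpt1a and 0.15 (SE 0.077, limma adjusted p = 0.52) for Cpt1c, and neither passed. In the ribose experiment Cpt1a had 46.9, 43.1 and 64.4 FPKM in Ribose, against 45.8, 42.7 and 59.6 FPKM in Vehicle. Cpt1c had 24.2, 24.3 and 26.1 FPKM in Ribose, against 21.8, 26.0 and 22.9 FPKM in Vehicle. Here the groups overlapped for both. Cpt1a was 2.28 ± 0.158 times Cpt1c in AAV-TKT and 2.33 ± 0.0405 times in AAV-GFP, and 2.06 ± 0.361 times in Ribose and 2.11 ± 0.479 times in Vehicle (SD, n = 3 each). Cpt2, the inner-membrane partner, was lower than both, with group means of 11.4 to 14.4 FPKM.

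AAV-TKT was set against AAV-GFP to see what more transketolase does to these transcripts. None of the 34 genes passed the threshold, an adjusted p of 0.05 over all 13178 genes in limma, where 2 genes, 0.0152% of those tested, passed. Their lowest adjusted p was 0.386. At an unadjusted p under 0.05 there were 3 of 34 higher in AAV-TKT, Eci1, Acadvl and Mdh2, against 6.23% of all genes, and 0 of 34 lower, against 4.36%. Of the 34 log2 changes, 31 were above 0, 16 of 18 in the citrate cycle and 15 of 16 in fatty acid oxidation, where 53.7% of all genes were above 0. All AAV-TKT libraries lay above all AAV-GFP libraries for 7 of 34 genes, where 11.3% of all genes did so, and 0 of 34 were separated the other way, where 7.2% did so. The median log2 change was 0.10 for the 34 genes, 0.11 for the citrate cycle and 0.096 for fatty acid oxidation, beside 0.014 for all genes. The 95% intervals had a median reach of 0.20 to either side of the estimate, more than that median, and for 32 of 34 genes they lay within 0.5 of 0 on either side. Without AAV-GFP replicate 3 the median was 0.045 with 26 of 34 genes above 0, and with libraries scaled to equal totals it was 0.037 with 23 of 34 above 0, beside -0.048 for all genes. Quantile normalization put it at 0.062 with 27 of 34 above 0, beside 0.017 for all genes.

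Among the cycle enzymes, Mdh2 and Sdhb had the smallest p. Mdh2, which turns malate into oxaloacetate, had 189.5, 223 and 191 FPKM in AAV-TKT, against 177, 178 and 165 FPKM in AAV-GFP. Its log2 change was 0.21 (SE 0.086, limma adjusted p = 0.47). Sdhb, the iron-sulphur subunit of succinate dehydrogenase, had 84.7, 89.6 and 83.0 FPKM in AAV-TKT, against 79.5, 79.1 and 68.9 FPKM in AAV-GFP. Its log2 change was 0.18 (SE 0.078, limma adjusted p = 0.48). On GRCm38, Mdh2 is ENSMUSG00000019179, chr5:135778480-135790398, plus strand, and Sdhb is ENSMUSG00000009863, chr4:140961203-140979193, plus strand. For both, the lowest AAV-TKT library was above the highest AAV-GFP library, and AAV-GFP replicate 3 was the lowest of the 6. Sdha, the flavoprotein subunit, averaged 122 ± 4.57 FPKM in AAV-TKT and 112 ± 9.74 FPKM in AAV-GFP (SD, n = 3 each), with a log2 change of 0.12, and Sdhc and Sdhd, the membrane anchors, averaged 55.3 ± 2.42 and 57.8 ± 10.7 FPKM in AAV-TKT, against 50.2 ± 6.07 and 52.2 ± 5.03 FPKM in AAV-GFP. The 3 subunits of the NAD-linked isocitrate dehydrogenase kept their order, with Idh3b at 1.76 ± 0.122 times Idh3a in AAV-TKT and 1.75 ± 0.0632 times in AAV-GFP. The 2-oxoglutarate dehydrogenase component Ogdh averaged 95.8 ± 1.06 FPKM in AAV-TKT and 91.2 ± 3.88 FPKM in AAV-GFP. Fumarase (Fh1) averaged 34.5 ± 2.15 FPKM in AAV-TKT and 30.9 ± 2.13 FPKM in AAV-GFP. Idh2 had the lowest log2 change of the 34, at -0.17, and Idh3g and Acaa2 were the other genes below 0.

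In fatty acid oxidation the smallest p belonged to Eci1, the isomerase that readies unsaturated chains for the next round (ENSMUSG00000024132, chr17:24426641-24439348, plus strand). It had 14.9, 14.7 and 14.03 FPKM in AAV-TKT, against 11.9, 11.1 and 13.1 FPKM in AAV-GFP. The groups did not overlap, and the log2 change was 0.26 (SE 0.080, limma adjusted p = 0.39). Acadvl, the very-long-chain acyl-CoA dehydrogenase of the first step (ENSMUSG00000018574, chr11:70010183-70015411, minus strand), had 48.9, 48.0 and 46.7 FPKM in AAV-TKT, against 44.4, 39.6 and 40.5 FPKM in AAV-GFP. Again the groups did not overlap, with a log2 change of 0.20 (SE 0.068, limma adjusted p = 0.41). Exons of Acadvl overlap those of Dvl2 on the other strand, and whether the authors counted by strand is not stated. The other acyl-CoA dehydrogenases, Acadl for long, Acadm for medium and Acads for short chains, had overlapping groups. Acadl had 63.6, 74.7 and 69.9 FPKM in AAV-TKT, against 70.4, 69.7 and 59.0 FPKM in AAV-GFP.

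Electrons from these dehydrogenases pass to electron transfer flavoprotein, made of Etfa (ENSMUSG00000032314, chr9:55454508-55512243, minus strand) and Etfb (ENSMUSG00000004610, chr7:43444083-43457800, plus strand), and on to Etfdh. Etfb had 48.6, 56.4 and 53.5 FPKM in AAV-TKT, against 51.1, 37.0 and 42.7 FPKM in AAV-GFP, and the groups overlapped through AAV-GFP replicate 1. It had the largest log2 change of the 34, at 0.28 (SE 0.12, limma adjusted p = 0.47). Etfa had 58.8, 70.9 and 61.4 FPKM in AAV-TKT, against 53.7, 59.2 and 55.7 FPKM in AAV-GFP, with a log2 change of 0.17 (SE 0.086, limma adjusted p = 0.50) and a small overlap. Hadhb, the thiolase subunit of the trifunctional protein and the highest fatty acid oxidation gene of this table, had 79.4, 70.1 and 78.1 FPKM in AAV-TKT, against 73.4, 73.8 and 63.6 FPKM in AAV-GFP. The ratio of Hadhb to Hadha, the genes that share a start region, was 1.48 ± 0.135 in AAV-TKT and 1.40 ± 0.0821 in AAV-GFP, and 1.54 ± 0.276 in Ribose and 1.47 ± 0.171 in Vehicle (SD, n = 3 each).

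**Figure D2:**
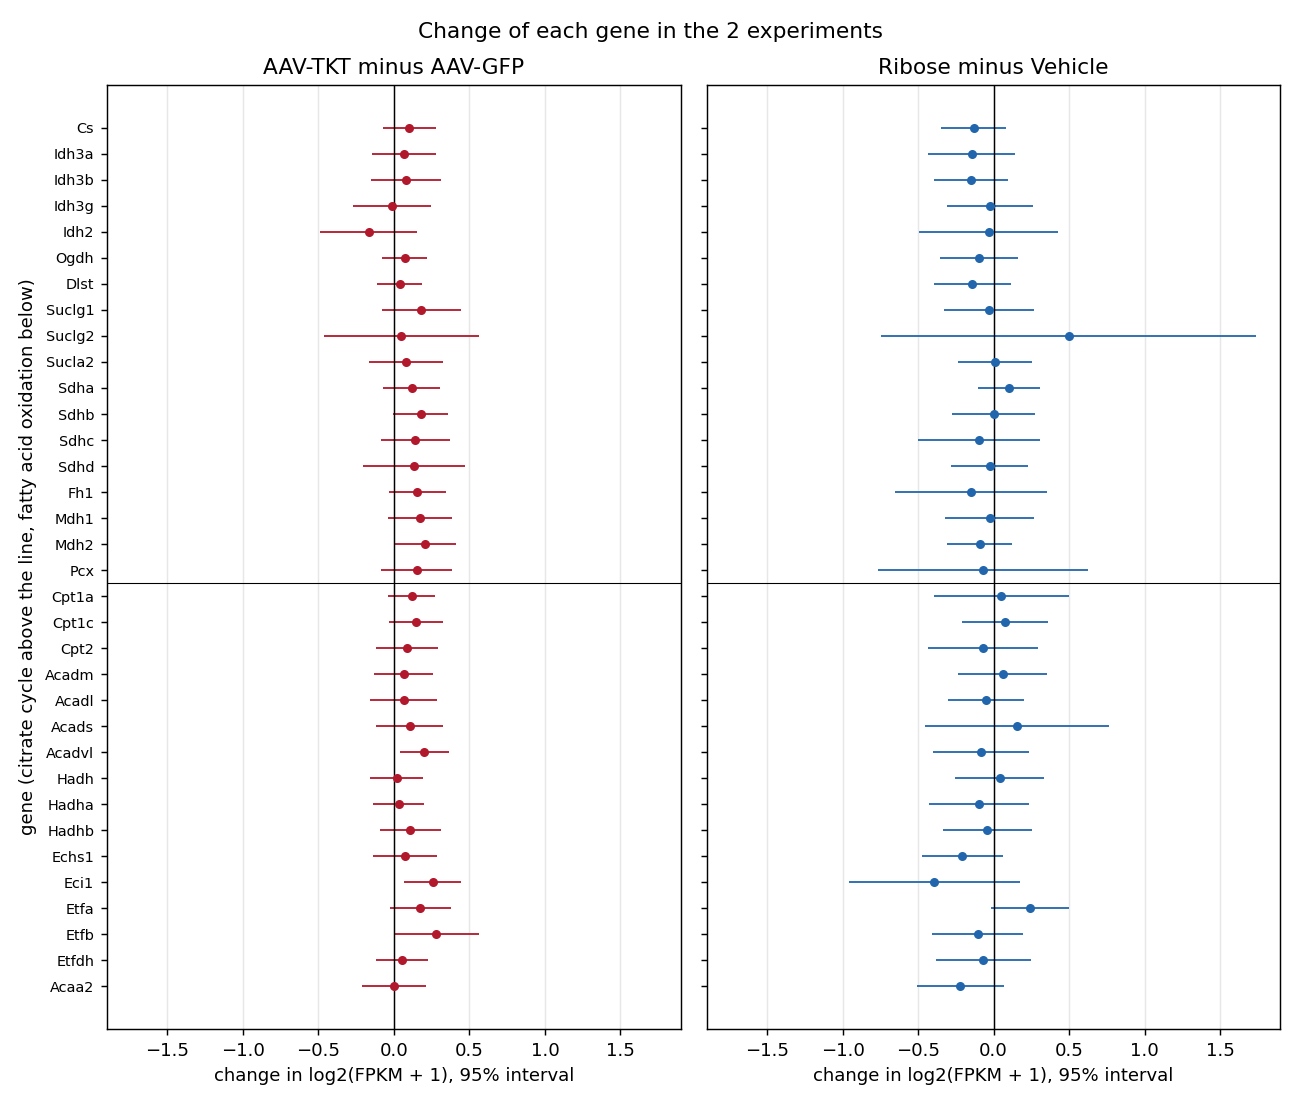
Change in log2(FPKM + 1) of each gene with its 95% interval, AAV-TKT minus AAV-GFP on the left and Ribose minus Vehicle on the right. In the AAV panel 31 of 34 points lie right of 0 and most intervals cross it, and in the ribose panel 24 of 34 points lie left of 0 and every interval crosses it.

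A pair of AAV libraries lay apart for these genes, and the median of 0.10 was 0.045 without AAV-GFP replicate 3 and 0.084 without AAV-TKT replicate 2. AAV-GFP replicate 3 was the lowest of the 6 libraries for 23 of 34 genes (67.6%), where it was the lowest for 26.0% of all genes. AAV-TKT replicate 2 was the highest for 19 of 34 genes (55.9%), against 21.4% of all genes. The summed level of the 34 genes was 2009.9, 2219.8 and 2059.8 FPKM in AAV-TKT, against 1972, 2002 and 1792 FPKM in AAV-GFP. The neuron markers had their lowest and highest sums in the same 2 libraries, with 10185, 11052 and 9961 FPKM in AAV-TKT, against 9403, 9308 and 8287 FPKM in AAV-GFP. Among the 12 neuron markers, 11 had a log2 change above 0, where 53.7% of all genes did, with a median of 0.21, beside 0.10 for the 34 genes. Markers of non-neuronal cells ran the other way. Of 10 neutrophil markers all were below 0, with sums of 19.9 to 32.4 FPKM in AAV-TKT and 97.2 to 263 FPKM in AAV-GFP. All 6 red cell, 7 macrophage and 8 Schwann cell markers tested were below 0. Of 9 satellite glia markers 8 were below 0, with a median of -0.37. All AAV-TKT libraries lay below all AAV-GFP libraries for 10 neutrophil, 6 red cell, 5 macrophage, 5 Schwann cell and 0 satellite glia markers. Of all genes, 7.2% did so. None of the neuron or other markers given here passed in limma. Genes encoded by mitochondrial DNA, which make respiratory chain subunits, did not follow the 34 nuclear genes, with sums of 4601, 2251 and 4688 FPKM in AAV-TKT, against 4125, 3943 and 6609 FPKM in AAV-GFP. The part of the cell mix in the changes of the 34 genes was not tested.

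**Figure D3:**
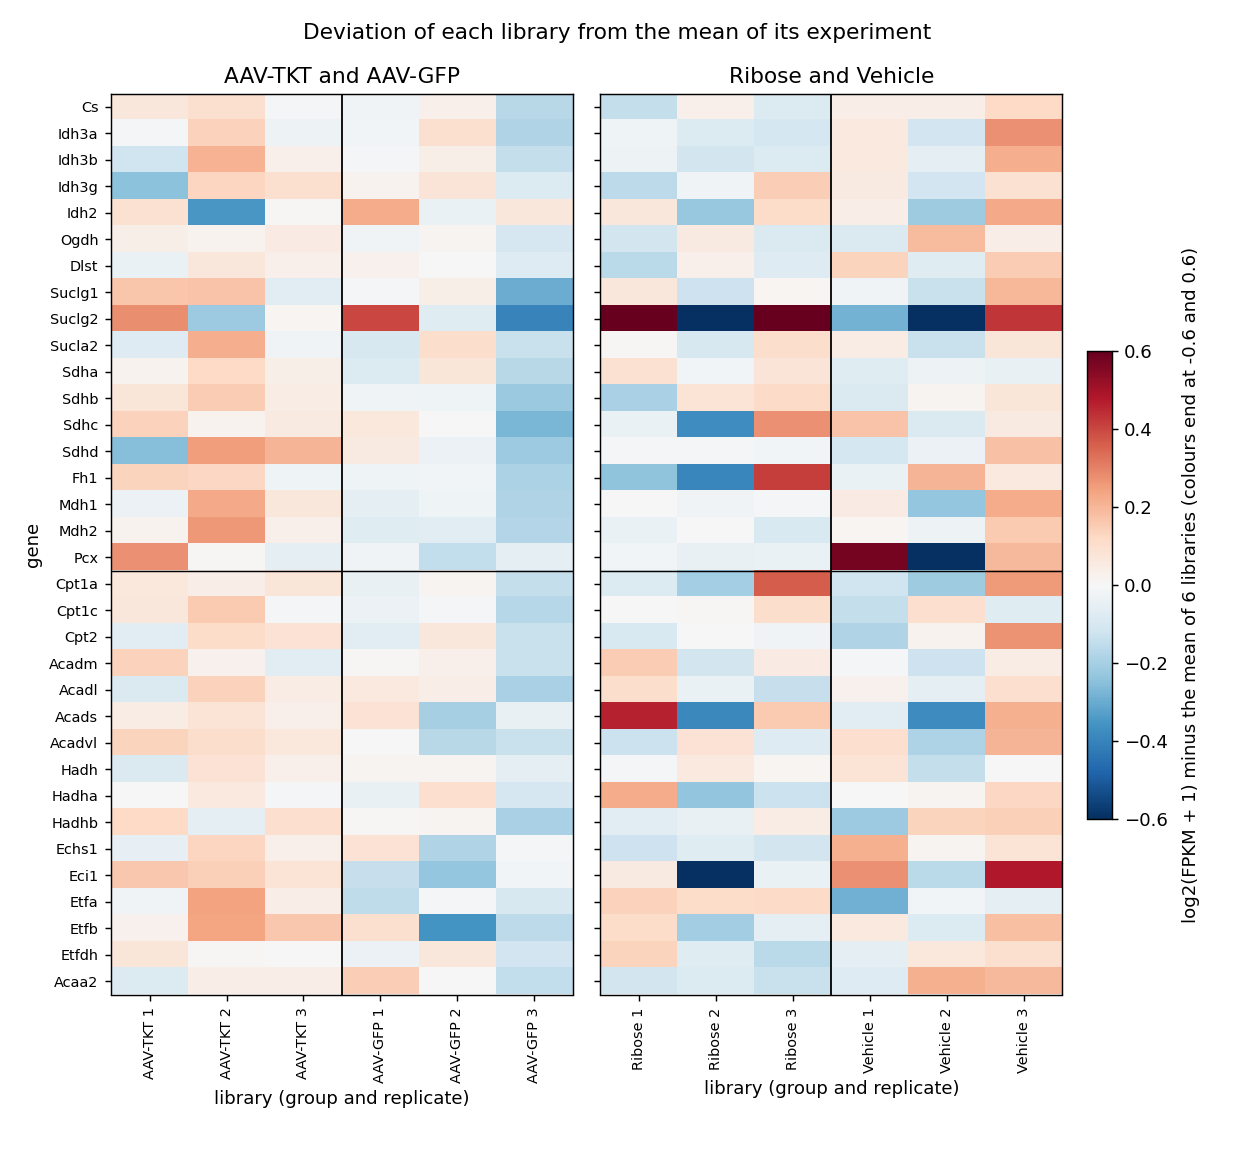
Deviation of log2(FPKM + 1) of each gene in each library from the mean of the 6 libraries of its experiment, red above and blue below. The column of AAV-GFP replicate 3 is mostly blue, those of AAV-TKT replicate 2 and Vehicle replicate 3 are mostly red, and Suclg2 is blue in both replicates numbered 2 of the ribose experiment.

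**Figure D4:**
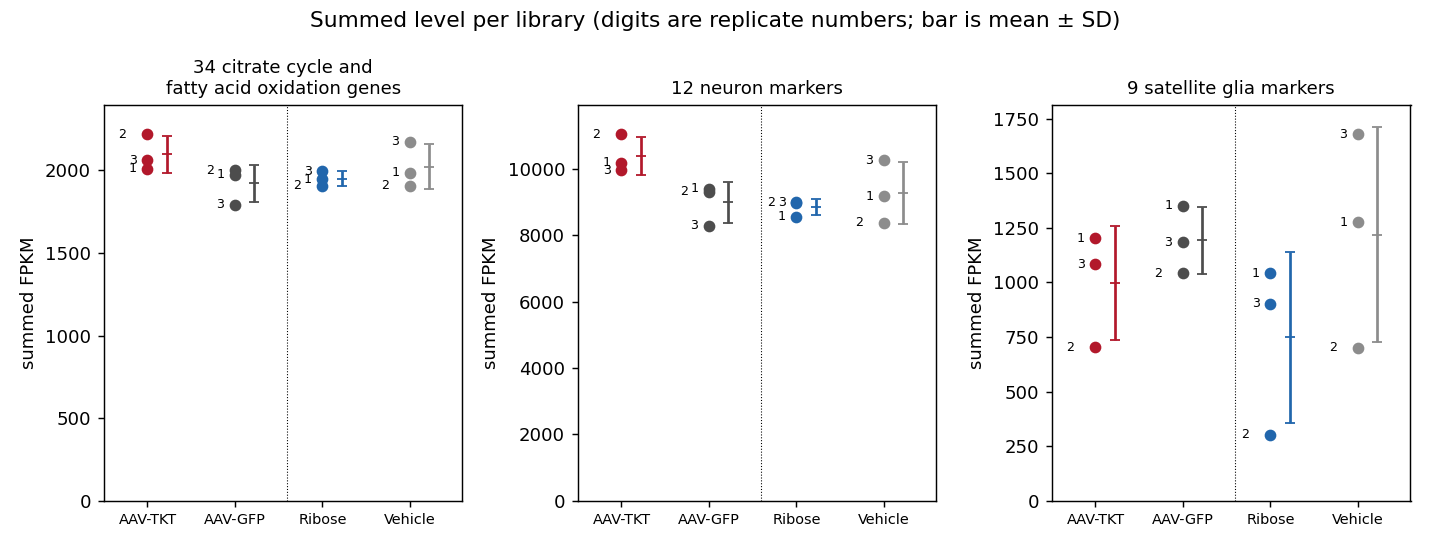
Summed FPKM per library of the 34 genes, of 12 neuron markers and of 9 satellite glia markers; points are libraries with their replicate number, bars are mean ± SD (n = 3), and the dotted line parts the 2 tables. AAV-GFP replicate 3 has the lowest sum of the AAV table for the 34 genes (1792 FPKM) and for the neuron markers (8287 FPKM), and Vehicle replicate 3 the highest of the ribose table for both.

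Ribose was set against Vehicle to see what treatment with the pentose sugar does to the same transcripts. None of the 34 genes passed in limma over 13804 genes, where 1 gene, 0.00724% of those tested, passed. At an unadjusted p under 0.05 there were 0 of 34, against 4.79% of all genes. Of the 34 log2 changes 10 were above 0 and 24 below, where 44.8% of all genes were above 0 and 55.2% below. The groups did not overlap for 5 of 34 genes, with Etfa and Sdha higher in Ribose, where 4.28% of all genes were, and Echs1, Acaa2 and Cs lower, where 5.35% were. The median log2 change was -0.059 for the 34 genes, beside -0.023 for all genes, and the 95% intervals had a median reach of 0.29 to either side. Without Vehicle replicate 3 the median was 0.016 beside -0.019 for all genes, with 19 of 34 genes above 0. Without Ribose replicate 2 it was -0.027 beside -0.023 for all genes. Quantile normalization put it at -0.0083 beside -0.020 for all genes, with 17 of 34 genes above 0. Equal totals without the non-coding RNA Rn7s2 put it at -0.016 beside 0.016 for all genes, with 16 above 0. Markers of other cells went in both directions in this experiment, and none of those given here passed. All 9 satellite glia markers had a log2 change below 0, with a median of -0.73. Of these, 0 of 9 were at an unadjusted p under 0.05, against 4.79% of all genes. Of 8 Schwann cell markers 6 were below 0, with a median of -0.23, and of 6 fibroblast markers 4 were above 0, with a median of 0.34. Of 12 neuron markers 8 were below 0, with a median of -0.041. The part of the cell mix in the ribose changes of the 34 genes was not tested.

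Etfa had the smallest p of the 34 in this experiment. It had 67.7, 66.4 and 66.6 FPKM in Ribose, against 50.05, 60.6 and 59.2 FPKM in Vehicle. All Ribose libraries lay above all Vehicle libraries, with a log2 change of 0.24 (SE 0.11, limma adjusted p = 1.00). Its partner Etfb had 49.6, 39.6 and 44.1 FPKM in Ribose, against 47.9, 43.3 and 52.1 FPKM in Vehicle, with a log2 change of -0.11 and overlapping groups. The ratio of Etfa to Etfb was 1.52 ± 0.154 in Ribose and 1.19 ± 0.184 in Vehicle, and 1.20 ± 0.0542 in AAV-TKT and 1.32 ± 0.275 in AAV-GFP (SD, n = 3 each). For this ratio the groups overlapped in both experiments, with Vehicle replicate 2 at 1.40 and Ribose replicate 1 at 1.37.

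Echs1, Acaa2 and Eci1 had the lowest log2 changes of the fatty acid oxidation genes with ribose, and none of the 3 passed. Echs1, the enoyl-CoA hydratase (ENSMUSG00000025465, chr7:140105710-140116476, minus strand), had 21.1, 21.9 and 21.4 FPKM in Ribose, against 27.0, 23.4 and 24.5 FPKM in Vehicle. Acaa2, the thiolase that releases acetyl-CoA, had 25.5, 26.0 and 25.0 FPKM in Ribose, against 26.2, 32.1 and 31.7 FPKM in Vehicle. Both were separated between the groups, with log2 changes of -0.21 (SE 0.12, limma adjusted p = 1.00) for Echs1 and -0.22 (SE 0.12, limma adjusted p = 1.00) for Acaa2. Eci1 had 12.8, 7.72 and 11.9 FPKM in Ribose, against 15.1, 10.9 and 17.52 FPKM in Vehicle. Its groups overlapped, and the log2 change was -0.39 (SE 0.24, limma adjusted p = 1.00), the lowest of the 34. Acadl, the highest fatty acid oxidation gene of this table, had 79.8, 72.0 and 67.2 FPKM in Ribose, against 75.6, 71.2 and 79.6 FPKM in Vehicle.

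Within the cycle, Cs, the enzyme that joins acetyl-CoA to oxaloacetate (ENSMUSG00000005683, chr10:128337734-128362479, plus strand), had 107, 120.7 and 112 FPKM in Ribose, against 121.5, 122 and 128 FPKM in Vehicle. The groups came close without overlapping, with a log2 change of -0.13 (SE 0.093, limma adjusted p = 1.00). Idh3b had 91.7, 86.6 and 88.4 FPKM in Ribose, against 97.6, 89.9 and 109 FPKM in Vehicle, with a log2 change of -0.15 (SE 0.10, limma adjusted p = 1.00) and overlapping groups. Mdh2 had 187, 192 and 181 FPKM in Ribose, against 194, 189 and 215 FPKM in Vehicle. Sdha averaged 107 ± 4.27 FPKM in Ribose and 99.8 ± 1.42 FPKM in Vehicle (SD, n = 3 each), with a log2 change of 0.099. Pcx, pyruvate carboxylase, which refills oxaloacetate and is known in the nervous system mainly from glia, averaged 15.6 ± 0.153 FPKM in Ribose and 17.47 ± 7.36 FPKM in Vehicle, whose libraries were the most uneven after those of Suclg2. Vehicle replicate 3 was the highest of the 6 libraries for 14 of 34 genes (41.2%), where it was the highest for 17.9% of all genes, and it also had the highest neuron marker sum, 10261 FPKM, the highest satellite glia sum, 1679 FPKM, and the highest relative depth, 1.34, of the 6.

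The difference between the effects of AAV-TKT and of ribose was tested in 1 limma fit over the 12853 genes of both tables. None of the 34 genes passed, where 1 gene, 0.00778% of those tested, did. At an unadjusted p under 0.05 there were 2 of 34, Mdh2 and Eci1, against 6.85% of all genes. The difference was 0.30 for Mdh2 (SE 0.12, limma adjusted p = 0.69), 0.65 for Eci1 (SE 0.27, limma adjusted p = 0.69) and 0.39 for Etfb (SE 0.18, limma adjusted p = 0.74) on the log2 scale. For 29 of 34 genes the difference was above 0, where 58.6% of all genes were, with a median of 0.16 beside 0.053 for all genes. Without Vehicle replicate 3 that median was 0.092. Quantile normalization put it at 0.051 beside 0.048 for all genes, with 24 of 34 genes above 0, and equal totals put it at 0.080 beside -0.025, with 23 above 0. Side by side, 21 of 34 genes had a log2 change above 0 with AAV-TKT and below 0 with ribose, 10 were above 0 in both and 3 below 0 in both. These counts were largely set by the 31 genes above 0 with AAV-TKT and the 24 below 0 with ribose. No share over all genes was computed for them.

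Genes next to these enzymes in the same pathways were described as well. Of 24 citrate cycle neighbours (pyruvate dehydrogenase, malic enzymes, transaminases, carriers and assembly factors), 0 passed in limma in either experiment, 21 were above 0 with AAV-TKT, where 53.7% of all genes were, and 9 with ribose, where 44.8% were. At an unadjusted p under 0.05 there were 4 higher in AAV-TKT, against 6.23% of all genes, and 1 higher in Ribose, against 2.8%. Ogdhl, an Ogdh-like gene expressed in brain, had 18.8, 17.8 and 17.6 FPKM in AAV-TKT, against 16.3, 15.4 and 14.5 FPKM in AAV-GFP (log2 change 0.22, limma adjusted p = 0.41). Pdhb, which feeds the cycle from pyruvate, averaged 112 ± 4.29 FPKM in AAV-TKT and 96.8 ± 6.78 FPKM in AAV-GFP, and the mitochondrial malic enzyme Me2 25.1 ± 1.26 FPKM in AAV-TKT and 21.9 ± 0.959 FPKM in AAV-GFP. These 3 were among 8 of the 24 whose AAV-TKT libraries all lay above the AAV-GFP libraries, where 11.3% of all genes did so, and 0 of 24 were separated the other way, where 7.2% were. With ribose the smallest p was that of Me3, another mitochondrial malic enzyme, at 4.65, 3.71 and 4.88 FPKM in Ribose, against 3.09, 1.49 and 2.65 FPKM in Vehicle (log2 change 0.69, limma adjusted p = 1.00). The transaminase Got2 averaged 129.5 ± 9.64 FPKM in Ribose and 145 ± 6.48 FPKM in Vehicle, and the assembly factor Sdhaf4 22.4 ± 2.46 FPKM in Ribose and 18.3 ± 3.06 FPKM in Vehicle.

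Of 27 fatty acid oxidation neighbours 25 could be tested in each experiment, 0 passed in limma, and 12 were above 0 with AAV-TKT, where 53.7% of all genes were, and 7 with ribose, where 44.8% were. At an unadjusted p under 0.05 there was 1 of 25 higher in AAV-TKT, Acsl6, against 6.23% of all genes, and 0 of 25 lower, against 4.36%. With ribose there were 0 of 25, against 4.79% of all genes. Acsl6, an acyl-CoA synthetase known from brain, had 57.1, 54.6 and 55.7 FPKM in AAV-TKT, against 45.9, 45.2 and 43.4 FPKM in AAV-GFP. Its log2 change was 0.31 (SE 0.060, limma adjusted p = 0.32). Mlycd, malonyl-CoA decarboxylase, averaged 9.97 ± 0.329 FPKM in AAV-TKT and 8.78 ± 0.651 FPKM in AAV-GFP, and Decr1, a dienoyl-CoA reductase, 15.5 ± 1.09 FPKM in AAV-TKT and 14.2 ± 0.539 FPKM in AAV-GFP. In the ribose experiment Slc25a20, the carnitine-acylcarnitine carrier, averaged 8.74 ± 1.41 FPKM in Ribose and 11.0 ± 1.48 FPKM in Vehicle, the peroxisomal reductase Decr2 12.5 ± 0.755 FPKM in Ribose and 14.8 ± 1.73 FPKM in Vehicle, and Acad10 3.67 ± 1.35 FPKM in Ribose and 2.16 ± 0.866 FPKM in Vehicle (SD, n = 3 each).

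Ketone bodies are exchanged with acetyl-CoA by a few enzymes, of which Bdh1 and Oxct1 are described here. Bdh1, 3-hydroxybutyrate dehydrogenase, averaged 23.2 ± 1.29 FPKM in AAV-TKT and 20.0 ± 2.34 FPKM in AAV-GFP (SD, n = 3 each), and 25.2 ± 0.890 FPKM in Ribose and 28.7 ± 5.31 FPKM in Vehicle, and passed in neither experiment in limma. Oxct1, the transferase that lets cells use ketone bodies, had 67.2, 67.7 and 71.7 FPKM in Ribose, against 85.9, 90.7 and 86.1 FPKM in Vehicle. All Ribose libraries lay well below all Vehicle libraries, with a log2 change of -0.34 (SE 0.091, limma adjusted p = 0.89), and it did not pass. In the AAV experiment its groups overlapped, at 85.96 ± 18.4 FPKM in AAV-TKT and 93.4 ± 14.8 FPKM in AAV-GFP (SD, n = 3 each). These are values of single genes, and no count over ketone body genes is given.

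Transcription factors, coactivators and kinases that act on these pathways were tested as 16 of 17 listed genes in each experiment, and 0 passed in limma. At an unadjusted p under 0.05 there were 0 of 16 with AAV-TKT, against 10.6% of all genes, and 0 of 16 with ribose, against 4.79%. With AAV-TKT 10 were above 0, where 53.7% of all genes were, and with ribose 11, where 44.8% were. The orphan receptor Esrrg averaged 10.8 ± 0.645 FPKM in AAV-TKT and 9.12 ± 1.66 FPKM in AAV-GFP, the coactivator Ppargc1b 3.37 ± 0.180 FPKM in AAV-TKT and 2.89 ± 0.0939 FPKM in AAV-GFP, and the pyruvate dehydrogenase kinase Pdk3 39.6 ± 3.37 FPKM in AAV-TKT and 35.7 ± 2.93 FPKM in AAV-GFP. With ribose, Gabpa, a subunit of GA-binding protein, had 8.94, 7.01 and 10.2 FPKM in Ribose, against 5.73, 6.86 and 5.98 FPKM in Vehicle, and Pdk1 averaged 16.8 ± 3.86 FPKM in Ribose and 12.7 ± 0.613 FPKM in Vehicle. Pparg averaged 3.39 ± 1.73 FPKM in Ribose and 1.501 ± 0.625 FPKM in Vehicle, highest in Ribose replicate 3 at 5.36 FPKM.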

How the data were processed

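RNA was extracted with a small-scale column kit and prepared as directional Illumina libraries, per the labels' protocols. Per the submitters' processing notes, bcl2fastq 2.20, FastQC and Trim Galore were used with the build GRCm38. No aligner, counter, annotation or strand setting is given in the sources used here. The authors deposited FPKM values, 1 table per experiment. The AAV experiment had 13178 genes, none with a mean under 1.00 FPKM, and the ribose experiment 21650 genes. Vehicle columns are headed as controls there.

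Symbols came from GENCODE M21. Within each experiment limma 3.58.1 (R 4.3.3, trended prior) compared log2(FPKM + 1) of the genes whose mean reached 1 FPKM, with Benjamini-Hochberg adjustment over all genes tested. Fold changes are on that scale and understate the change of low genes. The difference of the effects was fitted over all 12 libraries with 1 spread per gene. The fits within each experiment were tested on simulated data with independent noise and changes larger than any of the 34 genes. That test does not show what could be found at the size of change reported here. Motifs were searched in Python 3.11.15. The 34 genes, the lists and the tests were chosen with earlier results of these data known.

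Library values are given for the 6 genes with the smallest p in each experiment, the 3 with the smallest p for the difference, the pairs Cpt1a and Cpt1c, and Sucla2 and Suclg2, the highest gene of each pathway per table, and up to 3 genes per neighbouring list. Values of Sdha, Idh2, Pcx and the subunit ratios were picked after values were seen. Exons of Idh3b, Mdh1, Cpt1c, Acadvl, Hadha, Echs1 and Etfdh overlap a gene on the other strand, and those of Etfb overlap Gm45233 and Mir7051 on its own. Protein sequences were not analysed here. Some results on ketone body enzymes are not reported here. Alternatives were quantile, median-of-ratios and equal-total scaling, pseudocounts of 0.1 and 0.5, filters at 0 and 5 FPKM, a robust prior, a replicate block, library weights and leaving out each library. Equal totals without Rn7s2, and leaving out Ribose replicate 2 together with Vehicle replicate 2, were chosen after seeing the data.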

Additional observations from a re-analysis of the deposited data

How the results depend on the processing

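None of the 34 genes passed in any comparison under any alternative run. For AAV-TKT against AAV-GFP, 2 genes in all passed, and 5 did with a pseudocount of 0.1, 4 with a filter at a mean of 5 FPKM, 4 with equal totals, 0 with the replicate block, 23 with weights per library, and 3 to 41 with 1 library left out. Without AAV-GFP replicate 2 the count was 41. The median log2 change of the 34 genes was 0.037 with equal totals, where that of all genes was -0.048, and 0.045 to 0.14 with 1 library left out. With quantile normalization it was 0.062, where that of all genes was 0.017. For Ribose against Vehicle, 1 gene passed, and 2 did with a pseudocount of 0.5, 2 with equal totals, 6 with Vehicle replicate 2 and Ribose replicate 2 left out together, and 1 to 4 with 1 library left out, while the median ran from -0.087 to 0.016. For the difference, 1 gene passed, and 2 did with a pseudocount of 0.1, 12 with the joint omission, and 1 to 3 with 1 library left out. Its median was 0.080 with equal totals, 0.071 with equal totals without Rn7s2, 0.051 with quantile normalization and 0.092 to 0.19 with 1 library left out. The cause of these shifts was not tested.

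Signs of small changes turned in some settings. Over all 34 genes, the number whose sign differed from the reported one for AAV-TKT against AAV-GFP was 8 with equal totals, 1 with median-of-ratios scaling, 4 with quantile normalization, 3 with weights per library, 3 with equal totals without Rn7s2, and 0 to 5 with 1 library left out. For Ribose against Vehicle it was 7 with quantile normalization, 4 with weights per library, 6 with equal totals without Rn7s2, 6 with the joint omission, and 2 to 9 with 1 library left out. For the difference it was 6, 3, 5, 3 and 6 in the order of settings given for AAV-TKT, 4 with the joint omission, and 0 to 4 with 1 library left out. It was 0 in every other setting run. The values that follow are for the genes the text names, a subset settled after these sign changes had been seen and kept short for printing. For AAV-TKT against AAV-GFP, Suclg2 was -0.00011 and Acadl -0.0039 with equal totals, and Suclg2 was -0.13 with weights per library. With 1 library left out, the ranges were -0.075 to 0.072 for Acaa2, -0.00098 to 0.13 for Echs1, -0.14 to 0.26 for Suclg2, -0.016 to 0.13 for Acadl, -0.0072 to 0.16 for Idh3b and -0.0090 to 0.15 for Sucla2. For Ribose against Vehicle, quantile normalization gave 0.061 for Mdh1, 0.0031 for Mdh2, 0.0085 for Acadl and 0.020 for Hadhb. Weights per library gave -0.024 for Sucla2, -0.022 for Sdhb and -0.0052 for Cpt1a. Equal totals without Rn7s2 gave 0.017 for Mdh1 and 0.0019 for Hadhb, and the joint omission -0.0050 for Sucla2, -0.032 for Sdhb and 0.027 for Hadhb. With 1 library left out, the ranges were -0.057 to 0.098 for Sdhb, -0.055 to 0.059 for Sucla2, -0.12 to 0.19 for Cpt1a, -0.16 to 0.021 for Hadhb, -0.15 to 0.079 for Mdh1, -0.19 to 0.0013 for Acadvl and -0.12 to 0.0078 for Acadl.

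The labels do not say whether libraries with equal replicate numbers share an animal, a day or a batch. Deviations of same-numbered libraries correlated at 0.033, 0.071 and -0.014 in the AAV experiment and 0.042, 0.36 and 0.16 in the ribose experiment. Those of different numbers correlated at -0.10 to 0.080 in the AAV experiment and -0.26 to 0.14 in the ribose experiment. Not every library correlated best with its own number. With the replicate block the lowest adjusted p of the 34 genes was 0.37 with AAV-TKT and 0.66 with ribose. The 3 libraries of each group limit these comparisons, and a gene that did not pass cannot be taken as unchanged.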
